A study of Mus musculus with 4 samples.

Results

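The axis examined here consists of the leukemia inhibitory factor (LIF) and interleukin 6 (IL6) receptor system, the kinase JAK1, the transcription factor STAT3 and the feedback inhibitor SOCS3. Its 7 genes, Lif, Lifr, Il6st, Il6ra, Jak1, Stat3 and Socs3, were taken by symbol from the 25081 gene symbols listed in either assay. All 7 symbols were listed on a single row in both RNA-seq and Ribo-seq. The material was wild-type, untreated mouse blastocysts from 4-week-old C57BL/6J females and PWK/PhJ males; the strain label writes the maternal strain as C57BL/6N. The study's methods state that ovulation was induced with the gonadotropins PMSG and hCG, so all embryos came from hormone-treated females. Embryos were taken at the 8-cell stage, grown to blastocysts in KSOM culture medium, and stripped of the zona pellucida. A total of 2 RNA-seq libraries measured polyadenylated mRNA by Smart-seq2, and 2 Ribo-seq libraries measured ribosome-protected fragments (RPFs). All levels are FPKM, that is, fragments per kilobase of transcript (mRNA) or of coding sequence (RPF) scaled to the number of mapped fragments. FPKM is scaled to length, so genes can be compared within an assay. No library of another stage and no culture with added ligand or inhibitor was analysed here.

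LIF and IL6 are secreted ligands of the same cytokine family. LIF binds a receptor made of LIFR and IL6ST, also called gp130, whereas IL6 binds IL6RA together with gp130. JAK kinases bound to gp130 then phosphorylate STAT3, which enters the nucleus and activates transcription, and one of its direct targets is Socs3. SOCS3 protein in turn binds gp130 and the kinase and shuts the signal down. LIF with STAT3 sustains naive mouse embryonic stem cells, which derive from the inner cell mass of the blastocyst.

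The axis was unevenly represented. Stat3 was by far its most abundant transcript and its most abundant translated gene, Jak1 and Lif were intermediate, and the receptor subunits and Socs3 were scarce. In mRNA, 3 of the 7 genes (Stat3, Jak1 and Lif) had a mean of at least 1 FPKM, the limit used for an expressed gene, compared with 36.3% of the 25039 symbols of the assay. In RPF all 7 did, compared with 48.4% of 20756 symbols. For short coding sequences this limit lay below 1 RPF, by the depth estimated below. In the 2 Ribo-seq libraries, 1 RPF was worth 4.56 and 5.02 FPKM in Lif, 3.93 and 4.33 FPKM in Socs3, and 1.59 and 1.75 FPKM in Il6ra. The RPF count therefore depends on length and depth as well as on level. At a limit of 5 FPKM, the RPF count fell to 4.

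**Figure D1:**
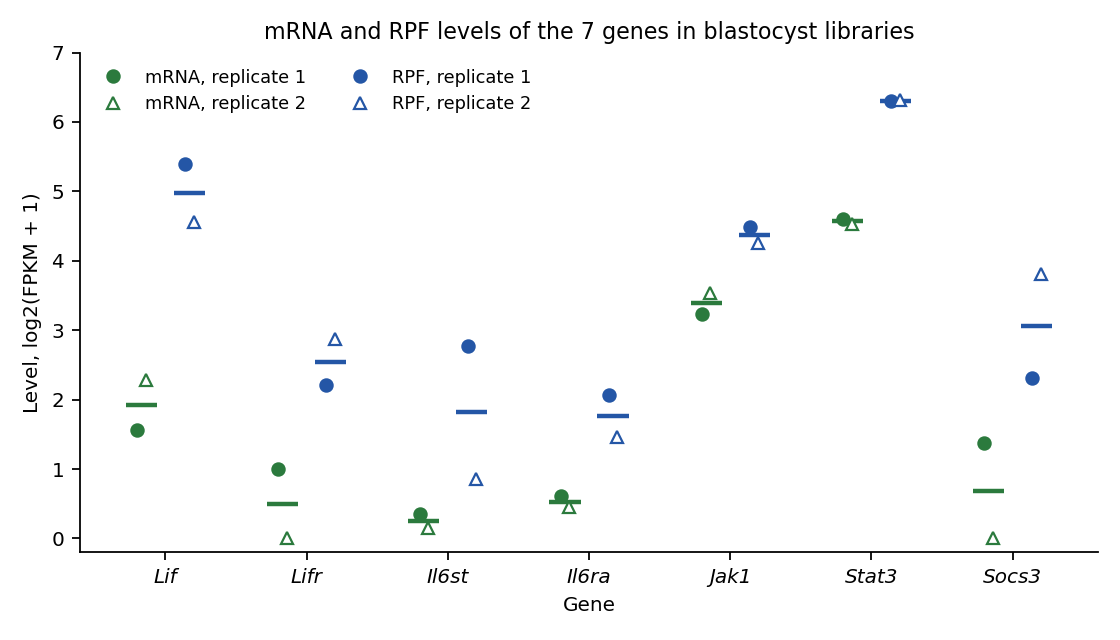
Levels of the 7 genes, from ligand to feedback inhibitor along the horizontal axis, as log2(FPKM + 1) on the vertical axis, with mRNA in green, RPF in blue, a symbol for each library and a line at the mean of the 2 libraries. Stat3 is highest in both assays with replicates nearly on top of each other, and Lifr and Socs3 have an mRNA library listed at 0.

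RPFs were counted over coding sequences, so the sequence around each annotated start codon is shown, from the NCBIM37 assembly (mm9) with GENCODE vM1 gene models. The authors counted over UCSC refFlat gene models, so the starts they used may differ. Each run holds 12 bases before the start codon, the start codon and 9 bases after it. Capitals mark the base 3 positions before the start codon, the start codon itself and the base that follows it.
Lif: gtccagcccAtaATGAaggtcttg
Lifr: acagcaaggAcaATGGcagcttac
Il6st: catccctgcAagATGTcagcacca
Il6ra: gtagaaggaAgcATGCtgaccgtc
Jak1: acaaccgaaTaaATGCagtatcta
Stat3: gactgcagcAggATGGctcagtgg
Socs3: gctccgtgcGccATGGtcacccac
A purine at the first capital, the main element of the Kozak consensus for start codon recognition, was present in 6 of the 7 genes, compared with 84.2% of 19220 annotated coding genes. Jak1 was the exception, with T. A G after the start codon was present in Lifr, Stat3 and Socs3, compared with 49.5% of all genes. At least 1 ATG lay upstream of the start codon in 6 of the 7 annotated leaders, which ranged from 38 bases in Il6st to 400 bases in Socs3. That share was 49.7% among all genes, whose median leader was 152 bases. Il6ra was the gene without an upstream ATG. These are descriptions of the annotated transcripts, and whether the blastocyst used them was not tested.

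The depth of the libraries set how firmly each level can be read. FPKM values of low genes fell on steps of whole fragments, and the steps implied 533352 and 484096 RPFs in the Ribo-seq replicates and 5484425 and 5219034 fragments in the RNA-seq replicates. In Ribo-seq, 86.4% and 86.8% of the tested low values lay within 0.1 of a whole number, and in RNA-seq 64.3% and 64.2% did. For a total fixed in advance, 20% would be near by chance. The totals were instead picked, within preset ranges, to make this share high, so 20% is too low a mark for chance. On 1000 bases of coding sequence, 1 RPF was therefore worth 2.34 and 2.58 FPKM, and a floor of 3 RPFs was 7.03 and 7.75 FPKM. Numbers of RPFs below are implied by FPKM and length in this way and are estimates. Intervals on them are exact 95% Poisson intervals and cover counting error only. Windows of 28 bases, about the length of a footprint, were taken along the coding sequences of the 7 genes, and those that do not span a splice junction had no second place in the genome.

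The identity of the material was checked first. All 7 trophectoderm markers and all 5 epiblast markers were above 0 in all 4 libraries. The 4 markers of ovarian follicle cells and the 3 of uterine epithelium and stroma were listed at 0 throughout. Of the 4 blood and immune markers, Ptprc and Hbb-b1 were also at 0. The macrophage marker Cd68 was at 3.10 and 2.18 FPKM of mRNA and 2.40 and 0 FPKM of RPF, and Lyz2 was at 0.209 and 0.221 FPKM of mRNA and 0 FPKM of RPF. Of the oocyte markers, Zp1, Zp2 and Bmp15 were at 0 and Zp3 did not exceed 1.92 FPKM. The libraries did differ in lineage markers. Summed epiblast markers were 4.75% and 2.06% of summed trophectoderm markers in RNA-seq replicates 1 and 2, and 12.2% and 15.6% in the Ribo-seq replicates. Summed primitive endoderm markers were 0.410% and 0.331% of them in RNA-seq and 2.60% and 2.62% in Ribo-seq, where Gata4 and Sox17, which define that lineage, reached 20.2 and 32.7 FPKM against at most 0.204 FPKM in RNA-seq. These shares rest on few genes. In RNA-seq replicate 1, Krt18 (1757 FPKM) and Krt8 (1078 FPKM) made up most of the trophectoderm sum of 3045 FPKM. Of their windows, 16.1% and 63.1% occur at more than 1 place in the genome, compared with 23.8% for Pou5f1 and 26.8% for Nanog. The shares are therefore not measures of lineage size. The most abundant markers in RPF were Krt18, Krt8 and Cdx2 for trophectoderm and Pou5f1, Nanog and Sox2 for epiblast. In the limma comparison of RPF with mRNA across all genes, Cdx2 and Gata6 were called higher in RPF. Cdx2 was at 21.6 and 21.0 FPKM of mRNA and 264 and 319 FPKM of RPF (limma adjusted p = 0.0290). Gata6 was at no more than 10.9 FPKM of mRNA and at 89.4 and 82.8 FPKM of RPF (limma adjusted p = 0.0428). The part of these differences in the results for the 7 genes was not tested. In whole blastocysts, fewer cells of a type and less RNA per cell cannot be told apart.

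Lif encodes the ligand of the axis and lies at chr11:4157560-4172517 on the plus strand. Its mRNA level was 1.96 and 3.85 FPKM in the RNA-seq replicates, above 69.5% and 75.8% of listed genes. Its RPF level was 41.2 and 22.6 FPKM in the Ribo-seq replicates, above 84.2% and 79.1% of listed genes. Every Ribo-seq library was higher than every RNA-seq library, but the assays share no absolute scale. The median of the genes compared below was also higher in RPF, by 1.26 on the log2 scale before centring. The replicates of each assay differed by 1.97-fold in mRNA and 1.82-fold in RPF. The RPF level rested on few molecules. It corresponded to 9.04 and 4.51 RPFs on the coding sequence of 612 bases, or to 6.08 and 3.03 on the shorter annotated form of 477 bases. Taken as 9 and 5 RPFs, the intervals were 4.12 to 17.1 and 1.62 to 11.7, which overlap.

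The receptor chains stood at the bottom of the axis. Lifr, which encodes the LIF-binding chain and lies at chr15:7079559-7147489, had 0.991 FPKM of mRNA in RNA-seq replicate 1, and RNA-seq replicate 2 listed it at 0. Its RPF level was 3.64 and 6.33 FPKM, from 5.98 and 9.43 implied RPFs on its longer coding sequence. Lifr was therefore found on ribosomes in both Ribo-seq libraries, whereas the RNA-seq replicates disagreed on whether its transcript was present at all. The mRNA value of replicate 1 implied 51.4 fragments on the longest annotated transcript (interval 38.0 to 67.1), or 14.3 on the shortest. The upper bound for the 0 of replicate 2 was 3.69 fragments. On the longest transcript, the pair therefore differed by more than counting error. A listed 0 of this kind was uncommon. Of the 1443 genes at 1 to 2 FPKM in RNA-seq replicate 1, the band that holds Socs3 and begins just above Lifr, 87 (6.03%) were listed at 0 in replicate 2. A listed 0 can also be a failed estimate by the software, and this could not be told apart from absence.

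Il6st encodes gp130, the signalling chain shared by the whole cytokine family, and lies at chr13:113265216-113297068. Its mRNA was 0.281 and 0.111 FPKM, the lowest of the 7 genes in replicate 1 and the lowest among those above 0 in replicate 2. Its RPF level was 5.86 FPKM in replicate 1 and 0.807 FPKM in replicate 2. The 7.26-fold spread was the widest of the 7 genes in either assay among pairs above 0. In molecules, the spread was 8 RPFs (interval 3.45 to 15.8) against 1 RPF (0.0253 to 5.57), and these intervals overlap. Il6ra encodes the IL6-binding chain and lies at chr3:89673246-89717084. It had mRNA of 0.521 and 0.367 FPKM and RPF of 3.17 and 1.75 FPKM, the latter from 2 and 1 implied RPFs. The Il6ra value was thus at or below the floor of 3 RPFs in both Ribo-seq libraries, and its translation was at the edge of detection at this depth.

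Jak1 encodes the kinase that initiates phosphorylation at gp130 and lies at chr4:100824972-100937887. Its mRNA was 8.41 and 10.6 FPKM, and its RPF level was 21.5 and 18.1 FPKM, from 37 and 29 implied RPFs. The replicates differed by 1.26-fold in mRNA and 1.19-fold in RPF. Within the family of 4 JAK kinases, Jak1 made up 78.1% and 85.5% of the summed mRNA FPKM and 82.1% and 80.3% of the summed RPF FPKM. Jak3 and Tyk2 had the next highest mean RPF levels. Jak3 was at 1.81 and 1.99 FPKM and Tyk2 at 1.11 and 2.46 FPKM. Jak2 had 1.75 FPKM of RPF in replicate 1 and 0 in replicate 2. Raver2 overlaps Jak1 on the opposite strand, and reads from their overlap cannot be assigned by strand in an unstranded library such as Smart-seq2.

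Stat3, the transcription factor of the axis, lies at chr11:100746412-100800854. Its mRNA was 23.4 and 22.2 FPKM, above 91.1% and 90.6% of listed genes. Its RPF level was 78.0 and 78.4 FPKM, above 89.4% and 89.7% of listed genes. Stat3 was also the most precisely measured gene of the axis, with replicates within 1.05-fold in mRNA and 1.00-fold in RPF, from 88 and 80 implied RPFs. The counting intervals of 70.6 to 108 and 63.4 to 99.6 RPFs were wider than the difference between the libraries. Stat3 overlaps Stat5a on the opposite strand, with the same limit on strand as for Jak1. Stat5a was low, however, at 0.833 and 1.21 FPKM of mRNA and 0.428 and 5.64 FPKM of RPF. Its level is uncertain, since 33.3% of its windows occur at more than 1 place in the genome.

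Stat3 dominated the STAT factors examined. It made up 78.3% and 77.5% of the summed mRNA FPKM of 6 STAT genes, and 90.4% and 81.4% of their summed RPF FPKM. Stat6, which acts downstream of interleukin 4, followed at 4.80 and 4.63 FPKM of mRNA and 4.85 and 10.7 FPKM of RPF. Stat5b was at 0.0157 and 0.487 FPKM of mRNA and at 3.03 and 0 FPKM of RPF. With 33.9% of its windows at more than 1 place in the genome, the Stat5b level is uncertain too. Stat4 was listed at 0 in all 4 libraries. The 3 genes with levels nearest to those of Stat3 over the 4 libraries, by Euclidean distance on the log2(FPKM + 1) scale, were Exosc2 at 0.13, Snx4 at 0.20 and Necap2 at 0.21.

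Socs3 encodes the feedback inhibitor and lies at chr11:117827393-117831361. Its mRNA was 1.60 FPKM in replicate 1, from 20.6 implied fragments, and 0 in replicate 2. Its RPF level was 3.94 and 13.0 FPKM, from 1 and 3 implied RPFs, so it was at or below the floor of 3 RPFs in both Ribo-seq libraries. The 3.31-fold difference in RPF between replicates was therefore a difference of 2 molecules, with intervals of 0.0253 to 5.57 and 0.619 to 8.77. Lifr and Socs3 shared the pattern of an mRNA value near 1 to 2 FPKM in replicate 1 and 0 in replicate 2. RNA-seq replicate 2 was also the library with the lowest epiblast markers relative to trophectoderm markers, as given above, and the part of this in the 2 genes was not tested.

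The promoters were searched for the palindrome TTCNNNGAA, to which STAT dimers bind, because Socs3 is a known direct target of STAT3. The windows ran from 250 bases before to 50 bases after each gene's start and came from RefSeq on GRCm38.p6. This palindrome reads the same on both strands, so each match was counted once. Among the 7 genes, only Socs3 had a match, compared with 8.30% of 32851 promoters. Its window at chr11:117969317-117969616 on the minus strand is shown with the match in capitals, beginning 154 bases before the start.
Socs3 promoter: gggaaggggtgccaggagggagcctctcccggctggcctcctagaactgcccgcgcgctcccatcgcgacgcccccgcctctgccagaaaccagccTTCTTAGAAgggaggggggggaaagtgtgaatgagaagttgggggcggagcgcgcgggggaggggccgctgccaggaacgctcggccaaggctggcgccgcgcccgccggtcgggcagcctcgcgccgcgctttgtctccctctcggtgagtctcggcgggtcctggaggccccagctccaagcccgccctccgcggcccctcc
The match is a description of the letters and not evidence of binding. Of the 10 genes listed as STAT3 targets in embryonic stem cells, 8 had a promoter in the table, and 0 of these 8 had a match in the same window.

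The order of the genes differed between the assays in the place of Lif and in that of Il6ra and Il6st. For mRNA the order was Stat3, Jak1, Lif, Socs3, Lifr, Il6ra and Il6st. The ranges of the 2 libraries overlapped between Socs3 and Lifr and between Lifr and Il6ra, and were separate between the other neighbours. For RPF the order was Stat3, Lif, Jak1, Socs3, Lifr, Il6st and Il6ra. Stat3, Lif, Jak1 and Socs3 were separated from each other by their ranges, but the neighbours from Socs3 down to Il6ra were not. Lif was thus below Jak1 in both RNA-seq libraries and above it in both Ribo-seq libraries. However, the Poisson intervals of their RPF levels overlapped in both libraries: the lower bound of Lif was 18.7 and 8.15 FPKM, and the upper bound of Jak1 was 29.3 and 26.4 FPKM. With 2 libraries per assay, an exact permutation test cannot give a p below 0.333, so the order is a description. The gap between the factor and its upstream receptor was wide in every library where it could be formed. Stat3 was 23.6-fold above Lifr in mRNA of replicate 1, and 21.4-fold and 12.4-fold above it in RPF.

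**Figure D2:**
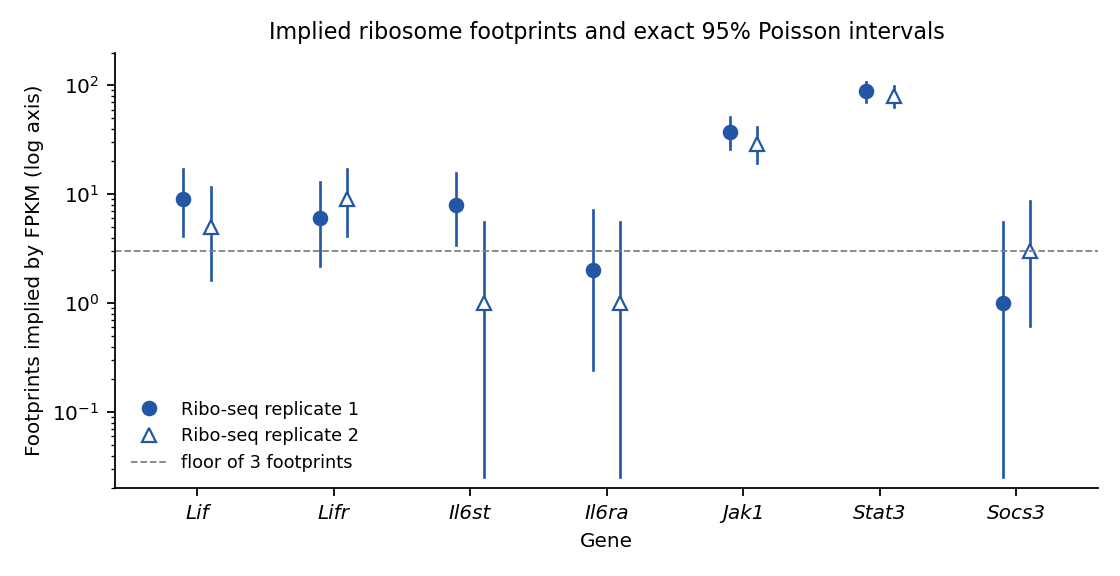
Ribosome footprints implied by the FPKM of each of the 7 genes (vertical log axis, number of RPFs rounded to whole numbers) in the 2 Ribo-seq libraries, with exact 95% Poisson intervals and a dashed line at the floor of 3 RPFs. Stat3 and Jak1 lie well above the floor, Lif and Lifr at 5 to 9 RPFs, and Il6ra and Socs3 at 1 to 3 RPFs.

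RPF was then compared with mRNA for each gene, to ask whether ribosome occupancy followed the transcript. Both assays were put on the log2(FPKM + 1) scale, and each library was centred on its median over the 8327 genes with a mean of at least 1 FPKM in both. The added 1 draws the differences of low genes toward 0 before centring. The library medians were 4.72 and 4.63 in Ribo-seq and 3.17 and 3.18 in RNA-seq, so centring then lowers every difference. Differences of low genes can therefore come out too low. For Tyk2 the difference was 0.36 before centring and -1.14 after it. The assays share no absolute scale, so each value is a difference between levels relative to the median of the library. Across the 8327 genes, limma with Benjamini-Hochberg adjustment called 554 genes (6.65%) higher in RPF and 442 genes (5.31%) lower, where a call needed a log2 difference of 1 or more together with an adjusted p under 0.05. The median of the differences was -0.24.

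Of the 7 genes, Lif, Jak1 and Stat3 passed the filter on low values, and 0 of the 3 were called by limma; 1 of them, Lif, had an unadjusted p under 0.05, compared with 36.3% of all tested genes. Lif had the largest difference, 1.56 on the log2 scale (SE 0.43, 95% interval 0.37 to 2.74), with both Ribo-seq libraries above both RNA-seq libraries after centring on the same scale. Its unadjusted p was 0.0216 and its limma adjusted p was 0.0871, so the difference did not pass. Without Ribo-seq replicate 2, which held 4.51 of its implied RPFs, the difference was 1.92 and the limma adjusted p 0.0160; over all 11 alternatives it ranged from 0.0146 to 0.377. For Jak1 the difference was -0.51 (SE 0.26, interval -1.23 to 0.21, limma adjusted p = 0.233). For Stat3 it was 0.23 (SE 0.24, interval -0.42 to 0.89, limma adjusted p = 0.513). Stat3 and Jak1 were therefore not shown to differ between the assays beyond the replicate error, with intervals that leave room for differences of up to 0.89 and down to -1.23. Lifr, Il6st, Il6ra and Socs3 had a mean mRNA under 1 FPKM and were not tested.

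**Figure D3:**
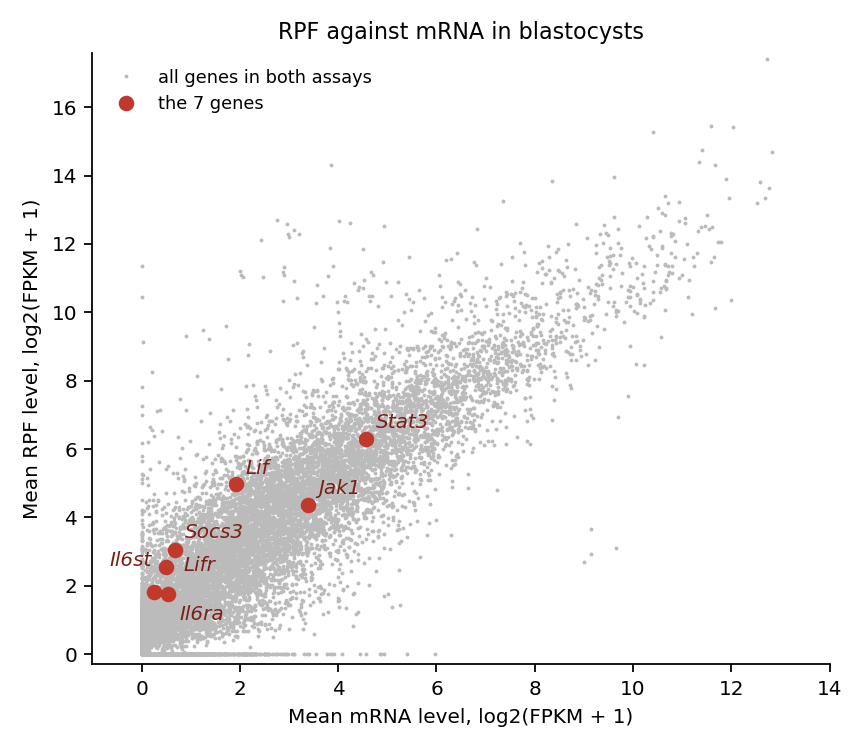
Mean RPF level against mean mRNA level, both as log2(FPKM + 1), for all genes listed in both assays (grey) and the 7 genes of the axis (red). All 7 genes lie inside the cloud of all genes, with Lif towards its upper edge and Jak1 and Stat3 near its middle.

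The other ligands of the family were mostly not found. Of the 9 examined, 1, Il6, had a mean of at least 1 FPKM in mRNA and in RPF. Il6 mRNA was 12.2 and 9.88 FPKM, above Lif in both RNA-seq libraries. Il6 RPF was 6.35 and 21.0 FPKM, below Lif in both Ribo-seq libraries, but the second pair (21.0 and 22.6 FPKM) was close, at 4.43 and 4.51 implied RPFs. As a result, Lif made up 13.7% and 25.4% of the summed mRNA FPKM of the 10 ligands examined, itself included, and 86.6% and 51.8% of their summed RPF FPKM. Il6 made up 85.6% and 65.1% in mRNA and 13.4% and 48.2% in RPF. The RPF difference of Il6 was -1.42 on the log2 scale (SE 0.64, interval -3.18 to 0.34, limma adjusted p = 0.193), and it did not pass. Without Ribo-seq replicate 2 it was -2.26 and passed (limma adjusted p = 0.00677), and without Ribo-seq replicate 1 it was -0.64; over 12 alternatives the adjusted p ranged from 0.00677 to 0.612. The difference between Lif and Il6 was itself not tested. The remaining ligands examined, Il11 and Cntf among them, had 0 FPKM in each Ribo-seq library. Their coding sequences are short, and the floor of 3 RPFs ranged from 9.51 FPKM for Osm in replicate 1 to 15.6 FPKM for Cntf in replicate 2, so levels like those of Il6 could have been missed. Ctf2 and Il27 were listed at 0 in all 4 libraries.

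The other receptor subunits were also scarce. Osmr, Cntfr and Il27ra, which bind oncostatin M, CNTF and IL27, were listed at 0 in all 4 libraries. For Osmr the floor of 3 RPFs was 2.07 and 2.28 FPKM in the Ribo-seq replicates, so a lower level was not detectable at this depth. Il11ra1 had mRNA of 1.66 FPKM in both RNA-seq libraries and RPF of 1.28 and 0 FPKM, but it has near-identical copies in the genome, with 57.3% of its windows at more than 1 place, and its level is uncertain. None of the 5 other receptor subunits passed the filter. Il11ra2 was listed in RNA-seq only. Il6ra, Il6st in replicate 2 and Il11ra1 were all under 3 implied RPFs, so differences among these subunits in RPF were within counting error.

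**Figure D4:**
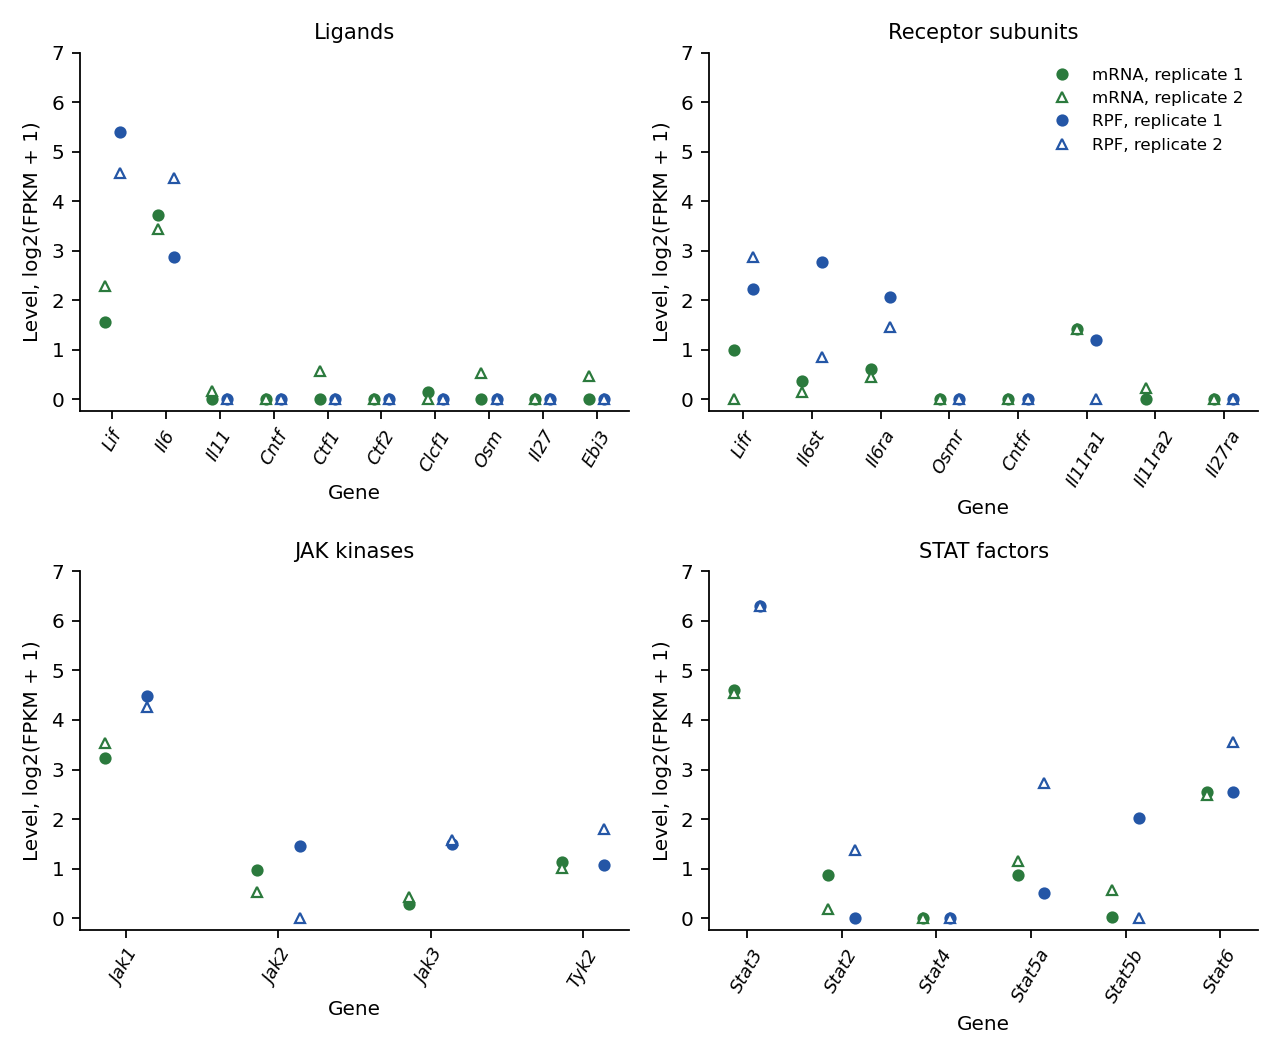
Levels as log2(FPKM + 1) of the examined ligands, receptor subunits, JAK kinases and STAT factors, with mRNA in green, RPF in blue and a symbol for each library; a missing symbol means that the gene was not listed in that assay. Lif and Il6, Jak1 and Stat3 stand above most of their relatives, and the receptor subunits all lie under 3 on this scale.

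Several other inhibitors had higher levels than Socs3. Of 14 listed inhibitors and phosphatases, 11 had a mean mRNA and 12 a mean RPF of at least 1 FPKM. Of the 10 tested, limma called 0 higher and 1 lower in RPF, against 6.65% and 5.31% of all genes. An unadjusted p under 0.05 was reached by 4 of the 10, a share near the 36.3% of all tested genes. The median difference of the 10 was -1.39 against -0.24. This median includes Socs1, Socs2 and Socs4, named here after their values were seen. Each had 0 FPKM in 1 Ribo-seq library and only 1 to 3 implied RPFs in the other. The called gene was Pias2, of the PIAS family that binds activated STATs, at 39.7 and 48.1 FPKM of mRNA and 44.5 and 40.4 FPKM of RPF. After centring its RPF was lower by a difference of -1.54 (SE 0.25, limma adjusted p = 0.0408). With a pseudocount of 0.1 the difference was -1.64, but the limma adjusted p was 0.0563; over 12 alternatives it ranged from 0.00223 to 0.327. Pias4 had the highest RPF level of the list, at 62.2 and 42.1 FPKM, and mRNA of 10.9 and 11.7 FPKM. Its difference of 0.58 (SE 0.29, limma adjusted p = 0.222) did not pass. Ptpn2, a phosphatase that acts on JAK1 and STAT proteins, was at 17.4 and 22.6 FPKM of mRNA and 40.4 and 54.4 FPKM of RPF, with a difference of -0.30 (SE 0.32, limma adjusted p = 0.529). Cish and Socs1, relatives of Socs3 named here after their values were seen, had mRNA of 18.0 and 21.8 FPKM and of 6.89 and 18.1 FPKM. Both were therefore above Socs3 in both RNA-seq libraries. In RPF, Cish was at 39.3 and 10.8 FPKM and Socs1 at 8.59 and 0 FPKM, so that neither was above Socs3 in both Ribo-seq libraries.

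The adaptors that connect the receptor to the RAS and PI3K pathways were all expressed in both assays, with 6 of 6 at a mean of at least 1 FPKM. Of the 6 tested, limma called 1 higher and 0 lower in RPF, against 6.65% and 5.31% of all genes. An unadjusted p under 0.05 was reached by 2 of the 6, a share near the 36.3% of all genes, and their median difference was 0.26. The called gene was Grb2, the adaptor that recruits the RAS activator SOS1. Its mRNA was 4.32 and 2.98 FPKM and its RPF 112 and 82.3 FPKM, a difference of 2.90 (SE 0.31, limma adjusted p = 0.0246). However, 54.2% of the Grb2 windows occur at more than 1 place in the genome, so reads of near-identical copies could enter this value. Gab1 and Shc1, docking proteins of the same branch, did not pass. Gab1 was at 52.0 and 37.1 FPKM of RPF, with a difference of -0.19 (SE 0.27, limma adjusted p = 0.639). Shc1 was at 43.4 and 37.5 FPKM of RPF, with a difference of 0.63 (SE 0.24, limma adjusted p = 0.149). Of the Shc1 windows, 29.2% occur at more than 1 place in the genome.

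The listed STAT3 targets held the 4 highest mean RPF levels of all the pathway lists, those of Klf5, Tfcp2l1, Mcl1 and Pim1. Of 10 listed, 7 had a mean mRNA and 8 a mean RPF of at least 1 FPKM. Of the 6 tested, limma called 2 higher and 0 lower in RPF, against 6.65% and 5.31% of all genes. The same 2 had an unadjusted p under 0.05, a share near the 36.3% of all genes, and their median difference was 0.99 against -0.24 for all genes. Pim1, a serine kinase, had mRNA of 2.11 and 2.61 FPKM and RPF of 130 and 116 FPKM, a difference of 3.70 (SE 0.25, limma adjusted p = 0.0164). Mcl1, which protects cells from apoptosis, had mRNA of 10.8 and 12.0 FPKM and RPF of 168 and 132 FPKM, a difference of 2.10 (SE 0.26, limma adjusted p = 0.0293). In both genes the RPF libraries lay far above the mRNA libraries after centring, with a narrow spread. Of the Mcl1 windows, 0.413% occur at more than 1 place in the genome. The Pim1 windows were not checked, so reads of similar copies were not assessed for its value.

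The pluripotency factors of the same list, Klf5 and Tfcp2l1, had the highest levels but not the largest differences. Klf5 mRNA was 94.2 and 96.7 FPKM and its RPF 521 and 386 FPKM, with a difference of 0.72 (SE 0.26, limma adjusted p = 0.142). Tfcp2l1 mRNA was 80.1 and 63.6 FPKM and its RPF 231 and 268 FPKM, with a difference of 0.29 (SE 0.28, limma adjusted p = 0.501). The Tfcp2l1 windows were not checked for other places in the genome either. Klf5 and Tfcp2l1 are also regulated by other factors in the blastocyst, and their dependence on STAT3 was not measured here. The calls of Pias2, Grb2, Pim1 and Mcl1 depended on both RNA-seq libraries: without replicate 1 or without replicate 2, limma called 0 genes in either direction, with 1279 and 1244 genes at an unadjusted p under 0.05. Without replicate 1 and without replicate 2, the differences themselves were -1.67 and -1.42 for Pias2, 3.12 and 2.68 for Grb2, 3.61 and 3.80 for Pim1, and 2.04 and 2.16 for Mcl1.

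**Figure D5:**
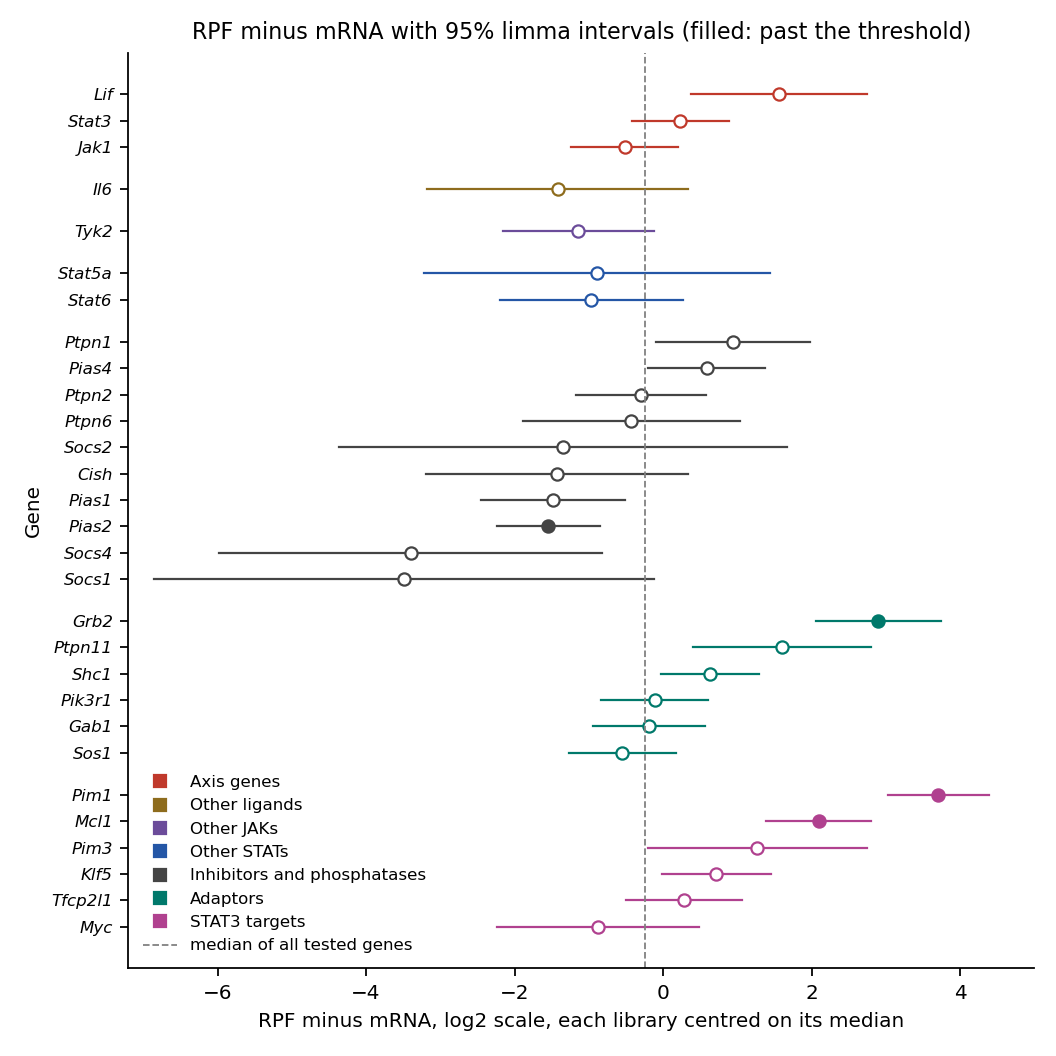
Difference of RPF from mRNA on the log2 scale (horizontal axis, each library centred on its median) for the tested genes of the axis and of the related lists, with 95% limma intervals, filled circles for genes past the threshold and a dashed line at the median of all tested genes. Grb2, Pim1 and Mcl1 are past the threshold to the right and Pias2 to the left, and the 3 genes of the axis have open circles.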

How the data were processed

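Values of 2 RNA-seq and 2 Ribo-seq libraries of blastocysts were used as the authors deposited them. The authors computed these FPKM per gene with Cufflinks (version 2.2.1) against mm9, over whole transcripts for mRNA and over coding sequences for RPF. Per the submitters' processing notes and the study's methods, reads were trimmed with Trim Galore (version 0.4.2) or cutadapt (version 1.14), rRNA reads were removed from Ribo-seq with Bowtie2 (version 2.2.2), and the rest were mapped with STAR (version 2.5.3a) to at most 20 places. Reads shared by similar genes can therefore move between them.

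Where a symbol had several rows, the highest value was kept. Levels were log2(FPKM + 1). RPF minus mRNA was fitted with limma (version 3.58.1, R 4.3.3) over the 8327 genes with a mean of at least 1 FPKM in both assays, each library centred on its median, with Benjamini-Hochberg adjustment over all of them. Nothing states whether replicates came from separate embryo pools, so p-values measure the spread between these libraries, which may be technical. Deposited files carry no counts. Total fragments were estimated from the steps in low FPKM values with the fragment length that Cufflinks assumes by default (mean 200, SD 80 bases). Lengths were those of the longest GENCODE vM1 transcript or coding sequence, whereas the authors used UCSC gene models. The study's methods describe paired-end RNA-seq reads, and whether the default fragment length applied to them is not stated. The fit and the depth estimate were also run on simulated data. For the depth estimate, simulation and search used the same lengths. The assumed fragment length and the choice of transcript were therefore not tested. The remaining computation was done in Python 3.11.15 (numpy 2.4.6, pandas 2.3.3, scipy 1.17.1, numba 0.67.0 and matplotlib 3.10.9).

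The 7 genes and the lists of related genes and markers were chosen with earlier results of these data known; 2 genes of the lists are not reported here and are left out of their counts and sums. Named from each list of pathway genes and of embryonic lineage markers were the genes past the threshold, the 3 with the highest mean RPF, and ligands, receptors and kinases at 0 throughout; other genes are said to be named after their values were seen. Alternatives were another pseudocount, other filters, quantile normalization, summed rows, a trend in the spread, no limit on the difference, the replicate block, and each library left out in turn.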

Additional observations from a re-analysis of the deposited data

How the results depend on the processing

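The number of genes called higher and lower in RPF (554 and 442) changed with the setting. A pseudocount of 0.1 gave 308 and 154, a spread with a trend 861 and 716, and a mean of at least 5 FPKM 751 lower. With no filter there were 5330 and 158. Centring on the medians of all 20714 genes no longer lowered the differences and instead raised them, for Lif from 3.06 to 3.43. With no filter but centring on genes of at least 1 FPKM, chosen after seeing the data, there were 1148 and 11134, since genes at 0 in all libraries then take the centring as their difference. Without 1 library, the counts ranged from 0 to 1187 higher and from 0 to 1647 lower; the 0 calls came without either RNA-seq library, and the single library left in an assay is assumed to vary like the other assay.

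The replicate block gave 0 and 0 calls by limma, with 2594 genes at an unadjusted p under 0.05. Replicate differences of the 2 assays had a correlation of 0.00994 across 8327 genes. Whether libraries of the same number share embryos is not stated. This correlation cannot decide it, because counting error could hide a shared difference. With the block, the limma adjusted p was 0.160 for Lif, 0.333 for Jak1 and 0.605 for Stat3; over 12 alternatives each, it ranged from 0.0125 to 0.657 for Jak1 and from 0.00362 to 0.885 for Stat3.

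With no filter, where centring raised the differences, Lif passed with a difference of 3.43 (limma adjusted p = 0.0146) and Stat3 with 2.10 (0.00362). Before any centring these differences were 3.06 and 1.74. Jak1 turned to 1.35 (0.0125), Il6 to 0.45, Tyk2 to 0.72, Stat5a to 0.98, Stat6 to 0.90, Pias2 to 0.32, Ptpn2 to 1.57 and Gab1 to 1.68. Before any centring Pias2 was at -0.04 and Il6 at 0.08. Under quantile normalization Tyk2 turned to 0.25 and Stat5a to 0.66, and Stat5a ranged from -1.01 to 0.21 without 1 library, turning to the latter without Ribo-seq replicate 1. Lif ranged from 1.13 to 3.43 over 11 alternatives, with a limma adjusted p from 0.0146 to 0.377, and also passed without Ribo-seq replicate 2, at 1.92. At a limit of 5 FPKM, 4 of the 7 genes were counted in RPF. Depth limits Il6ra and Socs3, at or below 3 RPFs in each Ribo-seq library, and Il6st in replicate 2.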
